A study of Mus musculus with 4 samples.

Results

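Leukaemia inhibitory factor (LIF), its receptor chains and the kinase, transcription factor and feedback genes downstream of them were followed as 10 genes chosen by symbol: Lif, Lifr, Il6st, Osmr, Il6ra, Il11ra1, Jak1, Stat3, Pias3 and Socs3. All 10 were found among the 19991 genes of the deposited table that carries symbols, and all 10 passed the low-count filter that kept 20950 genes for testing. RNA sequencing was done on whole mouse uterus from gestational day 4, with 2 control and 2 knockout libraries. Controls were labelled as wild type. Knockouts, Prss29Cre/Cre;Pgrf/f (named Pgr gecKO in the labels), carried Cre at both copies of Prss29, a serine protease gene of the uterine glands, and both copies of the progesterone receptor gene Pgr flanked by loxP sites. Controls carried neither allele, so Cre, the altered Prss29 locus and the intended loss of Pgr in gland cells cannot be told apart. The labels give no strain or age and do not say whether each library came from 1 animal or several, and the p-values below therefore reflect only how far these libraries differ, some of which may be technical.

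LIF is a cytokine secreted by uterine gland cells of the mouse around the time the blastocyst arrives, and implantation fails in mice that lack it. It binds the receptor chain encoded by Lifr, which pairs with gp130, encoded by Il6st and shared by the whole interleukin-6 family. The paired chains activate JAK kinases, which phosphorylate STAT3, and STAT3 dimers enter the nucleus and switch on genes such as Socs3, whose product shuts the receptor complex down again. In the uterine epithelium this relay is known as a step toward receptivity.

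The promoters of the ligand gene and of the feedback gene are shown because they stand at the start and the end of the relay. Each sequence gives the 250 bases before the RefSeq start site, read 5′ to 3′ on the gene's own strand in build GRCm38.p6. The Lif window is chr11:4257318-4257567 on the plus strand and the Socs3 window chr11:117969367-117969616 on the minus strand. Capitals mark matches to the STAT motif TTCNNNGAA or to the AP-1 motif TGACTCA, each searched on both strands.
Lif: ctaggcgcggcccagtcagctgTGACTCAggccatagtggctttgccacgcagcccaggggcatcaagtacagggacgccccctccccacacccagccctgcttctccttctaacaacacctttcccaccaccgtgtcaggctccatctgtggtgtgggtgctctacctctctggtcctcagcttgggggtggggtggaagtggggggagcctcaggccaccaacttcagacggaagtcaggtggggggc
Socs3: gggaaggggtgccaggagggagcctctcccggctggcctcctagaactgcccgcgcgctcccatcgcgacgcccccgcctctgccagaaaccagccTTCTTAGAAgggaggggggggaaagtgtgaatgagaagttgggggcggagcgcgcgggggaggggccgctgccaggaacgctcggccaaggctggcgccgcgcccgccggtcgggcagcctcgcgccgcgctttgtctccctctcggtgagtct
All 10 genes matched the RefSeq promoter table, with 13 windows in all because Lifr, Il11ra1 and Pias3 have more than 1 listed start. Socs3 held the only STAT match among the 13 windows, TTCTTAGAA, whose first base lies 154 bases before the start. The same motif was present in 7.02% of 32851 promoter windows of this length in the table. Lif held the only AP-1 match, whose first base lies 228 bases before the start, against 4.46% of all windows. A progesterone receptor half-site, TGTTCT, was matched in 1 window, that of Stat3, against 16.1% of all windows. GC boxes (GGGCGG) were matched in 9 of the 13 windows, covering 8 of the 10 genes but not Lif or Il6ra, against 32.7% of all windows. The Lif window had 63.6% G and C, the Socs3 window 71.6%, and the median over all windows was 52.4%. These matches describe letters only and say nothing of which factor was bound.

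Libraries held 29932153 to 35149834 counts. The smallest count of any of the 10 genes in a library was 150, for which counting error alone is 8.16%, and the largest was 30512. As a check of the labels, Prss29 was counted 1524 times in control 1, 190 times in control 2 and 0 times in each knockout. Pgr, which stroma and muscle transcribe too, stood between 130.1 and 146.2 CPM in all 4 libraries. The Pgr values therefore do not show whether gland cells lost it. Markers of epithelium, stroma and smooth muscle were all present, as the label whole uterus implies, but in unequal amounts. The summed TPM of 10 smooth muscle genes was 10211 in control 1, 3361 in control 2 and 8589 and 11878 in knockouts 1 and 2. That of 10 pan-epithelial genes was 2724, 3919, 3479 and 3137 in the same order. In whole tissue, fewer cells of a type and less RNA per cell cannot be told apart. Values between libraries are given below in CPM, which is the count scaled to library size with TMM factors, and levels of different genes are compared in TPM, which also divides by gene length.

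Lif (ENSMUSG00000034394), the ligand, was the gene of the 10 whose groups lay farthest apart. Its level was 55.7 CPM in control 1 and 9.46 CPM in control 2, against 4.90 and 5.35 CPM in knockouts 1 and 2. Control 1 stood far above the other 3 libraries, and control 2 also lay above both knockouts, so the groups did not overlap. The group means were 32.6 ± 32.7 and 5.12 ± 0.318 CPM (SD, n = 2 each), a 6.36-fold difference in means, with 10.9-fold between control 1 and the knockout mean and 1.85-fold between control 2 and that mean. The 5.89-fold gap between the controls themselves exceeded the gap between control 2 and the knockouts. The log2 fold change of Lif was −2.67 (SE 0.75, 95% interval −4.46 to −0.88), with an unadjusted p of 0.00986 and an adjusted p of 0.99998 over all genes (edgeR quasi-likelihood test, Benjamini-Hochberg). DESeq2 gave nearly the same log2 fold change, −2.67, with an adjusted p of 0.00465. Without control replicate 1 it was −0.87 (edgeR adjusted p = 0.9998), and without control replicate 2 it was −3.44 (edgeR adjusted p = 0.00228). Both controls thus bear on the size and the call. The sign was negative in all 16 alternatives tried. With both knockouts below both controls, leaving out a library could hardly turn it.

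**Figure D1:**
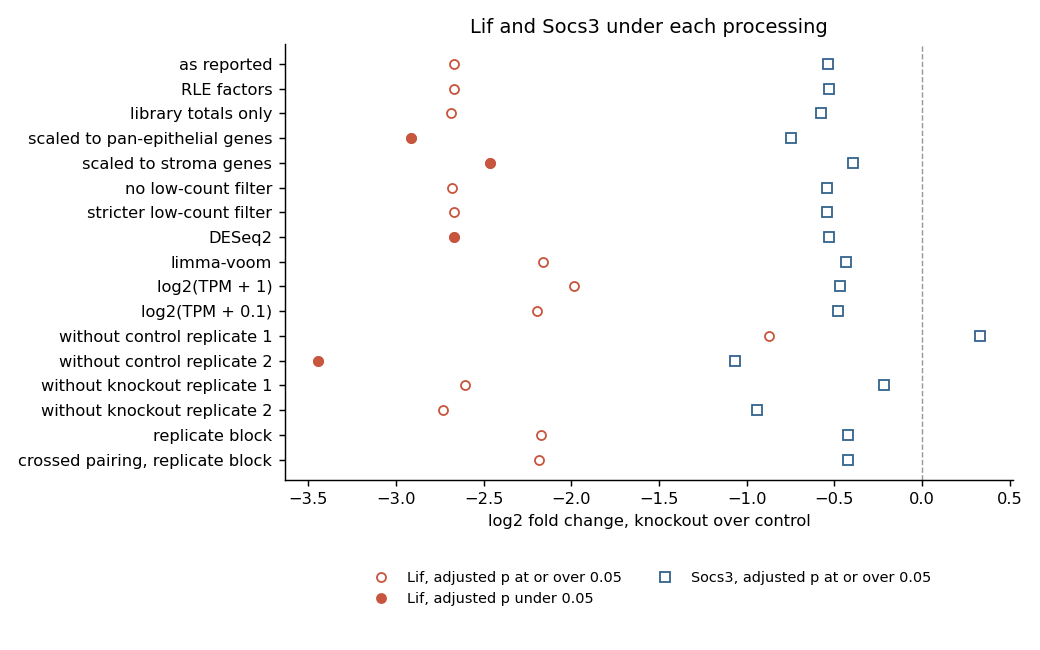
Log2 fold change of Lif (circles) and Socs3 (squares), knockout over control, on the x axis, under each processing named on the y axis, with filled symbols where the adjusted p was under 0.05. Lif stays below 0 throughout, from −3.44 to −0.87, and is filled in 4 of the 16 alternatives, whereas Socs3 lies between −1.07 and 0.33 and is never filled.

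Cell type markers were read beside Lif, in lists chosen with earlier results of these data known. Over all genes tested, 3.01% had an unadjusted p under 0.05 in edgeR, in either direction. Of the 10 gland epithelium markers, 5 had an unadjusted p under 0.05 and lower values in the knockout, 1 had such a p with higher values, and 0 passed over all genes in edgeR. The list's summed TPM was 565 in control 1, 1032 in control 2, and 643 and 439 in the knockouts, a sum to which Fxyd4 alone gave 139.9, 611, 477 and 276 TPM. Without Fxyd4, a split chosen after seeing the data, the other 9 markers summed to 425 and 421 TPM in the controls against 166 and 163 TPM in the knockouts. Spink1 gave 117.8 and 255.7 TPM of the control sums and 48.8 and 32.8 TPM of the knockout sums. Prss29 gave 118.0 and 14.6 TPM in the controls and 0 in the knockouts. Of the same 9, Cxcl15 and Sox9 overlapped between the groups and Aldh1a1 was higher in both knockouts. Foxa2 was at 13.5 CPM in both control 1 and knockout 1. The 9 markers thus did not fall together. Prss29, the defining protease at the Cre locus, was at 0 in both knockouts, and its 43.9 and 5.41 CPM in controls 1 and 2 ran in the same direction as Lif. So did the neighbouring protease gene Prss28, at 22.2 and 1.42 CPM in the controls against 0.0907 and 0.143 CPM in the knockouts, and the transthyretin gene Ttr, at 12.3 and 4.90 against 0.484 and 0.570 CPM. Control 1 was above control 2 in only 4 of the 10 gland markers, against 50% of all genes tested. Foxa2, Spink1, Cxcl15, Sox9, Aldh1a1 and Fxyd4 ran the other way between the controls. Cxcl15 and Aldh1a1 also had log2 fold changes above 0, at 0.67 and 0.72. Of 8 macrophage markers, 5 had an unadjusted p under 0.05, all lower, with a summed TPM of 1074 and 1377 in the controls against 762 and 770 in the knockouts, and none of them was at 0. The summed TPM of the B and plasma cell list was 790.4 and 765 in the controls against 153 and 140.3 in the knockouts. Igkc alone gave 667 and 632 TPM of it in the controls and 124 and 106 TPM in the knockouts. In that list 5 of 6 genes were tested and 2 had an unadjusted p under 0.05, both lower. They were Igkc, the kappa light chain gene, with a log2 fold change of −2.44 (edgeR adjusted p = 0.0613), and Jchain, with −2.22 (edgeR adjusted p = 0.216). In the same list Cd79a and Cd79b had log2 fold changes above 0, at 0.21 and 0.39, on 18 to 65 reads a library. Mzb1 was lower in both knockouts. Ms4a1, which was not tested, had 4 and 3 reads in the controls against 35 and 4 in the knockouts. The B and plasma cell list thus did not fall together. The part of these marker shifts in the Lif values was not tested.

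Lifr (ENSMUSG00000054263), the chain that binds LIF, had group means that differed by less than the spread between replicates. It was at 84.1 and 51.8 CPM in controls 1 and 2 and at 55.9 and 75.6 CPM in knockouts 1 and 2. The knockouts both lay between the controls, and the log2 fold change was −0.049 (SE 0.30), with an interval in folds of 0.592 to 1.58. Scaling to stroma genes turned its sign, to 0.040.

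Il6st (ENSMUSG00000021756), which encodes the shared signalling chain gp130, was at 878 and 548 CPM in the controls and at 539.8 and 562 CPM in the knockouts. Control 1 stood above 3 libraries that lay close together. The log2 fold change was −0.37 (SE 0.33), and without control replicate 1 it was 0.022.

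Osmr (ENSMUSG00000022146), the oncostatin M receptor chain that also pairs with gp130, had the lowest log2 fold change after Lif, −0.77 (SE 0.46). Its values were 65.6 and 27.2 CPM in the controls and 19.8 and 34.7 CPM in the knockouts. Control 2 lay between the knockouts, so the groups overlapped, and the interval ran from −1.86 to 0.32. Without control replicate 1 the log2 fold change was 0.016.

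The ligand-binding chains for interleukin-6 and interleukin-11 varied less. Il6ra (ENSMUSG00000027947) was at 21.0 and 16.1 CPM in the controls and 15.7 and 16.2 CPM in the knockouts, with a log2 fold change of −0.22 (SE 0.27). Il11ra1 (ENSMUSG00000073889), a receptor gene needed for decidual growth in the mouse, was at 84.0 and 94.6 CPM in the controls and 99.5 and 93.3 CPM in the knockouts, with a log2 fold change of 0.11 (SE 0.20). Of the 10 genes, only Il11ra1 was lower in control 1 than in control 2. It has a near-identical neighbour, Il11ra2, and how reads matching both were counted is not given in the sources used here, so its level is uncertain.

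Jak1 (ENSMUSG00000028530) encodes a kinase bound to gp130. Its values were 387 and 217 CPM in the controls and 217 and 303 CPM in the knockouts, which overlapped. The log2 fold change was −0.22 (SE 0.35), which turned to 0.28 when control replicate 1 was left out and to 0.0066 when knockout replicate 1 was.

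Stat3 (ENSMUSG00000004040), the transcription factor of the relay, was at 346 and 260.0 CPM in the controls and 251 and 248 CPM in the knockouts. The groups did not overlap, but the gap between control 2 and knockout 1 was small beside the gap between the controls. Its log2 fold change was −0.28 (SE 0.26), and it was −0.045 without control replicate 1. These are RNA levels, and phosphorylated STAT3 protein was not measured.

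Pias3 (ENSMUSG00000028101), whose product binds STAT3 and holds back its activity, was the gene with the tightest replicates. It was at 46.8 and 46.6 CPM in the controls and 55.9 and 56.2 CPM in the knockouts, so both knockouts lay above both controls. The log2 fold change of 0.26 (SE 0.20, interval −0.21 to 0.73) did not pass the test, with an adjusted p of 0.99998 in edgeR. It ranged from 0.26 to 0.28 when each library was left out in turn, the narrowest such range of the 10 genes. With factors from pan-epithelial genes it was 0.16.

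Socs3 (ENSMUSG00000053113), the feedback inhibitor whose promoter holds the STAT match shown above, was at 58.2 and 22.3 CPM in the controls and 21.0 and 34.6 CPM in the knockouts. Control 1 was highest and control 2 lay between the knockouts. The log2 fold change was −0.54 (SE 0.47, interval −1.65 to 0.58), and without control replicate 1 it turned to 0.33. Control 2 and knockout 1 were nearly equal in Socs3, and control 2 had more Lif. Control 1 was the highest library in both genes. Any relation between Lif and Socs3 was not tested.

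**Figure D2:**
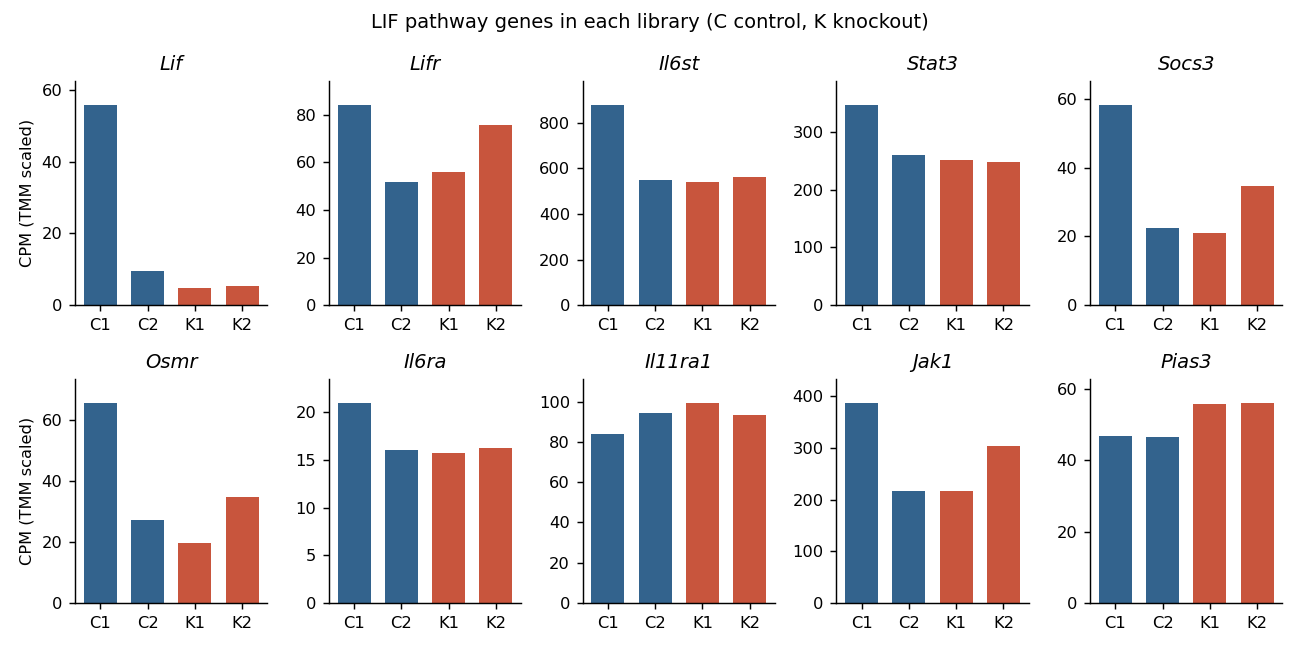
TMM-scaled CPM (y axis, from 0, its own scale in each panel) of each of the 10 genes in control libraries C1 and C2 and knockout libraries K1 and K2, 1 bar per library. C1 is the highest bar in 8 of the 10 panels, the exceptions being Il11ra1 and Pias3.

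Across the 10 genes, 0 passed the threshold of 0.05 over all genes in edgeR, where 0.00477% of all genes tested were called. At an unadjusted p under 0.05 there was 1 of 10, Lif, against 3.01% of all genes. DESeq2 called 1 of the 10, again Lif, where it called 90 of 34279 genes over the whole table. Limma-voom called 0 of the 10 and 0 of all 20950. Of the 10 genes, 8 lay below 0 in log2 fold change, against 10254 of all 20950 genes tested. The median of the 10 was −0.25 beside 0.0063 for all genes tested. Both knockouts lay below both controls in 2 genes, Lif and Stat3, against 13.1% of all genes, and above both controls in 1, Pias3, against 12.2%. A single-gene exact permutation test of 2 libraries against 2 cannot give a two-sided p below 0.333.

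**Figure D3:**
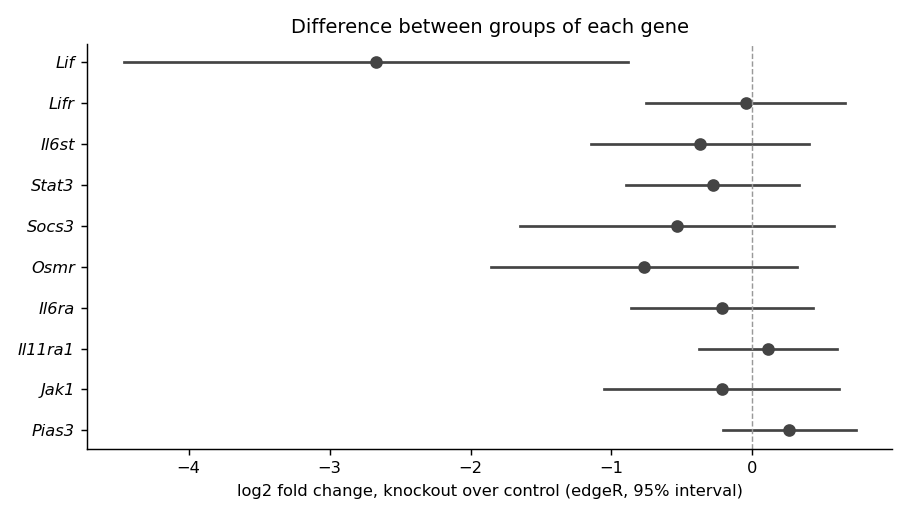
Log2 fold change, knockout over control, of each of the 10 genes (points) with its 95% interval from edgeR (lines). The Lif interval, −4.46 to −0.88, lies below 0 before adjustment, and the other 9 intervals cross 0.

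The widest contrast in these genes ran between control 1 and the rest. Control 1 was above control 2 in 9 of the 10 genes, against 50% of all genes tested, and was the highest of the 4 libraries in 8 of the 10, against 21.8% of all genes. The median difference of control 1 over control 2 was 0.69 on the log2 scale, where the median of all genes was −0.00045. With the knockouts set against control 2 alone, the median of the 10 genes was 0.017. The controls differed 2.61-fold in Socs3, 2.41-fold in Osmr, 1.79-fold in Jak1, 1.62-fold in Lifr and 1.60-fold in Il6st. Control 1 also had 1.45 more than control 2 on the log2 scale in the median smooth muscle gene and a difference of −0.42 in the median pan-epithelial gene. Smooth muscle genes were high in the knockouts as well, and control 1 was the highest library in 1 of the 10 smooth muscle markers. It was the highest library in 5 of 10 stroma markers, 5 of 8 macrophage markers and 3 of 6 endothelial markers. The stroma markers summed to 5657 TPM in control 1, 3471 in control 2, and 4081 and 3887 in the knockouts, with a median difference of 0.35 on the log2 scale between controls 1 and 2. The part of tissue makeup in the control 1 values was not tested.

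Per gene length, Il6st was the most abundant of the 10 genes and the ligand changed its place in the order. In controls the mean TPM ran from Il6st (205.8 ± 67.1, SD, n = 2) through Jak1 (133.9 ± 53.3), Stat3 (101.9 ± 20.4), Il11ra1 (64.0 ± 5.47), Socs3 (44.6 ± 28.0), Pias3 (38.2 ± 0.034), Lif (24.0 ± 24.1), Lifr (20.2 ± 6.76) and Osmr (12.3 ± 7.17) to Il6ra (6.87 ± 1.28). Only Stat3 and Il11ra1 were neighbours in that order whose ranges stayed apart. Every other pair of neighbours overlapped between the control libraries. In knockouts the order was Il6st, Jak1, Stat3, Il11ra1, Pias3, Socs3, Lifr, Osmr, Il6ra and Lif, and there only Osmr and Il6ra overlapped. Lif thus stood at 41.0 TPM in control 1, above both Lifr and Pias3, at 6.98 TPM in control 2, below Osmr, and at 3.72 and 3.52 TPM in the knockouts, below the other 9 genes.

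**Figure D4:**
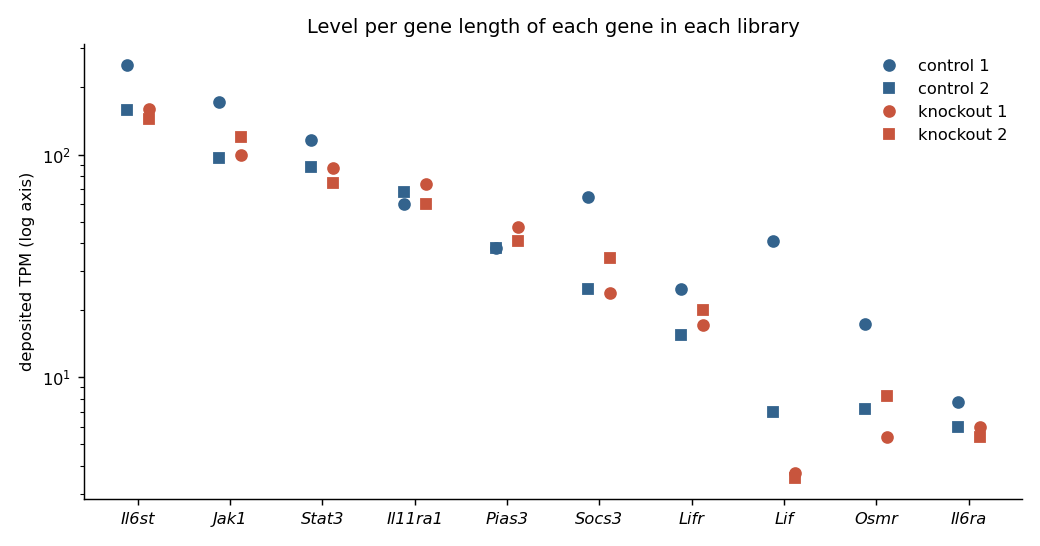
Deposited TPM (y axis, log scale) of each gene in each library, ordered by the mean over all 4 libraries, with controls in blue and knockouts in red. Lif spans from 41.0 TPM in control 1 to 3.52 TPM in knockout 2, while Il6ra stays between 5.37 and 7.77 TPM.

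Ratios of TPM within a library set ligand against receptor. Lif per Lifr was 1.64 in control 1, 0.452 in control 2, and 0.217 and 0.175 in knockouts 1 and 2. Il6st per Lifr was 10.1 and 10.3 in the controls against 9.38 and 7.22 in the knockouts, so the shared chain exceeded the LIF-binding chain in all 4 libraries. Socs3 per Stat3 was 0.554 in control 1, 0.283 in control 2, 0.275 in knockout 1 and 0.460 in knockout 2, with overlapping groups. Stat3 per Pias3, the factor against its inhibitor, was 3.04 and 2.29 in the controls against 1.85 and 1.82 in the knockouts, which did not overlap. These ratios were not tested.

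The 5 genes whose profile over the 4 libraries lay nearest to that of Lif were Trpm6, Exo1, Tacr1, Lgr5 and Entpd3, among 13318 genes whose mean reached 5 CPM. The measure was the Euclidean distance between log2 CPM values centred on each gene's mean. Trpm6, a magnesium channel gene, was closest at a distance of 0.402, with 33.4 and 4.16 CPM in the controls and 2.99 and 3.28 CPM in the knockouts. Lgr5, a receptor gene of epithelial progenitors, lay at 1.02, with 37.6 and 3.05 CPM in the controls and 3.60 and 2.00 CPM in the knockouts. Exo1, Tacr1 and Entpd3 lay at 0.903, 1.01 and 1.04. Of the other 9 LIF pathway genes the nearest to Lif was Osmr, at 1.79, and the farthest Pias3, at 3.01. Profiles over 4 libraries describe these libraries only.

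The other genes of the pathway were read as 8 lists with 78 genes, of which 73 were tested. In edgeR 0 of the 73 passed over all genes, beside 0.00477% of all genes. An unadjusted p under 0.05 was found for 2 of the 73, against 3.01% of all genes. The median log2 fold change was −0.10. DESeq2 called 1, Hp, beside 90 of 34279 genes over the whole table, and limma-voom called 0. Both knockouts lay below both controls in 10 of the 73 and above them in 4, against 13.1% and 12.2% of all genes.

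Among the other ligands of the family, 6 of 9 were tested and 0 passed, with a median log2 fold change of −0.48. Il6 had the smallest p of the list. It was thinly counted, with 13 and 27 reads in the controls against 4 and 5 in the knockouts, and had a log2 fold change of −1.92 (SE 0.75). Clcf1, which encodes a ligand of the ciliary neurotrophic factor receptor, was at 29.5 and 24.6 CPM in the controls and 29.1 and 31.6 CPM in the knockouts. Ctf1, the cardiotrophin gene, was at 5.70 and 17.5 CPM in the controls and 11.0 and 6.10 CPM in the knockouts. Of these, Clcf1 and Ctf1 overlapped between the groups.

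Other receptor genes, kinases and STAT factors gave 0 calls in edgeR. All 5 listed receptor genes were tested, with a median of −0.10. Crlf2 was counted in that list although it encodes a chain of the thymic stromal lymphopoietin receptor, not of an interleukin-6 family receptor. It was at 24.4 and 25.6 CPM in the controls and 27.6 and 19.0 CPM in the knockouts. Il27ra had a log2 fold change of −0.23, and Cntfr, the smallest p of that list, 0.72 (SE 0.68). The kinase genes Jak2, Jak3 and Tyk2 had log2 fold changes of −0.10, −0.13 and −0.016. Jak2 was the one whose controls differed most, at 227 CPM in control 1 and 385 CPM in control 2, opposite in order to Jak1. All 6 other STAT genes had log2 fold changes below 0, against 10254 of all 20950 genes tested. They ran from −0.65 for Stat4 to −0.037 for Stat6, and 0 passed. Stat2 was at 68.3 and 84.7 CPM in the controls and 64.5 and 70.1 CPM in the knockouts.

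Regulators of the relay other than Socs3 and Pias3 numbered 15, all tested, with a median of −0.032. The groups overlapped in 15647 of all 20950 genes tested, and in 14 of these 15. Their log2 fold changes ran from −0.30 for the phosphatase gene Ptpn6 to 0.22 for Socs5. Ptpn11, which encodes the phosphatase SHP2 that links gp130 to ERK signalling, had a log2 fold change of 0.062, and Socs7 one of −0.29. The 7 genes of the ERK branch had a median of −0.036, with the adaptor gene Grb2 at 0.0081, the kinase gene Mapk3 at 0.079 and Shc1, the smallest p of that list, at 0.24.

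Of 23 textbook STAT3 targets 22 were tested and 0 passed in edgeR. Their median log2 fold change was −0.16, with 17 below 0, against 10254 of all 20950 genes tested. The gene with the smallest p was Hp, which encodes the haemoglobin-binding protein haptoglobin, and it ran the opposite way to Lif. Hp was at 9.07 and 21.3 CPM in controls 1 and 2 and at 50.6 and 46.3 CPM in the knockouts, which did not overlap. Its log2 fold change was 1.68 (SE 0.40), with adjusted p = 0.955 in edgeR and 0.0138 in DESeq2. Mcl1, a survival gene, had a log2 fold change of −0.025 and Myc one of −0.19. Control 1 was the highest of the 4 libraries in 13 of the 22 targets, or 59.1%, against 21.8% of all genes.

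Genes linked to LIF or to implantation in the uterus were represented by 9 tested of 10, with a median of −0.16 and 0 passing. Coch, which encodes cochlin and depends on LIF in the uterine epithelium, had the smallest p. It was at 120.5 CPM in control 1 and 48.2 CPM in control 2, against 43.0 and 44.3 CPM in the knockouts, with a log2 fold change of −0.95 (SE 0.41, adjusted p = 0.99998 in edgeR). As with Lif, control 1 stood apart. Control 2 lay just above the knockouts, a smaller gap than in Lif. Acod1, the itaconate synthase gene induced in the receptive epithelium, was at 182 and 178 CPM in the controls and 142 and 237 CPM in the knockouts. Msx1, a homeobox gene of the epithelium and stroma before implantation, went the other way between the controls, at 204 CPM in control 1 and 412 CPM in control 2, with 414 and 319.8 CPM in the knockouts. Control 1 was highest in 6 of these 9 genes, against 21.8% of all genes tested.

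**Figure D5:**
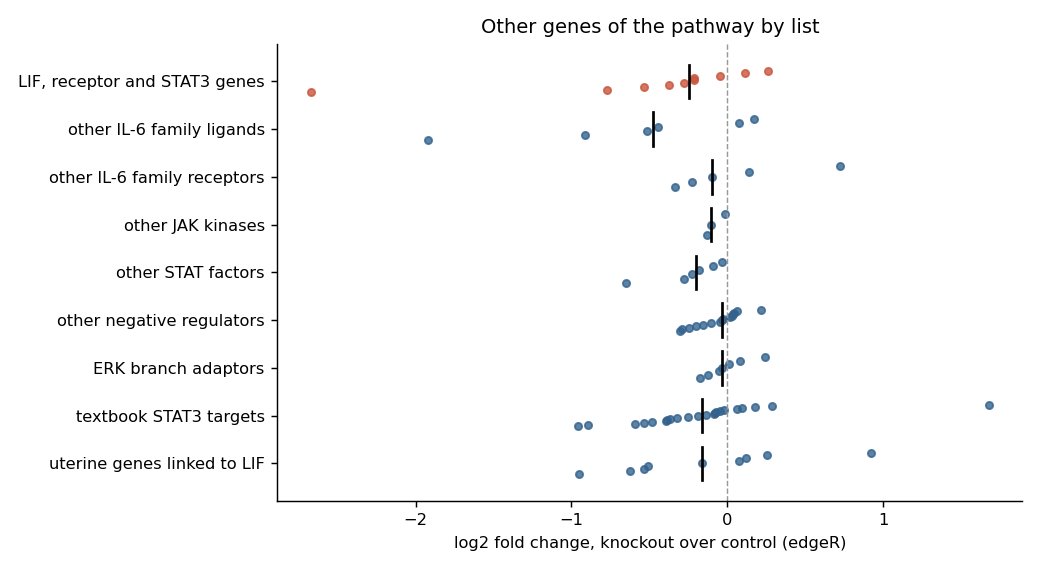
Log2 fold change, knockout over control (x axis, edgeR), of every tested gene in each list (y axis), with points for genes and a black line for the list's median. The list medians lie between −0.48 and −0.032, and Lif at −2.67 and Hp at 1.68 are the extremes.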

How the data were processed

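RNA came from whole uterus, a NEBNext Ultra II kit was used for the libraries, and paired reads of 150 bases were taken, per the labels and the series' design text. Trimmomatic, STAR and featureCounts with build GRCm39 are named in the submitters' processing notes. For these tools the version, annotation release, strand setting and rule for reads with several matches were not given in the sources used here. The authors deposited raw counts for 57186 genes and TPM for 19991 of them. The deposited TPM equal count over gene length, rescaled per library.

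Knockout was compared with control in edgeR 4.0.16 (quasi-likelihood test, R 4.3.3) on the raw counts, in a model of group alone with TMM factors and the filterByExpr defaults, with Benjamini-Hochberg adjustment over the 20950 genes tested at a threshold of 0.05. Standard errors and 95% intervals come from that fit. Alternatives were other scaling factors and filters, DESeq2 1.42.0, limma 3.58.1 (voom, and log2 of the deposited TPM plus 1 or 0.1), each library left out and a replicate block. The procedure was also run on counts simulated from the spread fitted to these data, with no library set apart as control 1 was. The results of that run are not given here, and it is no check of the values above. The 10 genes, the pathway lists and the marker lists were chosen with earlier results of these data known. Every one of the 10 genes is described. Of each other list the genes named are the 2 most abundant per length and the smallest p, with Pgr and Prss29 as label checks, and Tyk2, Socs5 and the cell type markers named were added after their values were seen. The 5 genes most like Lif follow from the distance rule. Sequences are from RefSeq, GRCm38.p6, matched by symbol, and no coordinate of different builds was combined.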

Additional observations from a re-analysis of the deposited data

How the results depend on the processing

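With 2 libraries a group, control 1 limits most values. Stat3, Il11ra1 and Pias3 kept their sign in all 16 alternatives, and none of the genes other than Lif passed the threshold in any. In Stat3 and Pias3, as in Lif, the groups did not overlap, so leaving out a library tests the sign little. Genes called over the whole table numbered 1 with edgeR as reported, 127 with factors from pan-epithelial genes, 109 with factors from stroma genes, 54 with no low-count filter, 0 with a stricter filter, 90 with DESeq2, 0 with limma-voom, and 3 and 6 with log2 of TPM plus 1 and plus 0.1. Leaving out each library gave 16 to 49, in fits where the lone library of a group is assumed to vary like the other group. At an unadjusted p under 0.05 the stricter filter had 428 genes and limma-voom 602. With factors from pan-epithelial or stroma genes the prior degrees of freedom were estimated as infinite, against 4.77 as reported. Those 2 scalings and DESeq2 each called 1 of the 10 LIF pathway genes, Lif, and 1 of the 73 other pathway genes, Hp, where edgeR called 0 and 0, and leaving out each library gave 0 to 1 for both counts. For Lif the log2 fold change was −2.92 (adjusted p = 1.52e-06) with pan-epithelial factors, −2.46 (6.18e-05) with stroma factors and −2.67 (0.00465) with DESeq2, −1.99 to −2.20 in the fits on log values, with adjusted p from 1.52e-06 to 0.999999 over all alternatives. The Lif log2 fold change ran from −3.44 to −0.87 with a library left out.

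Without control replicate 1 the sign turned for Lifr (0.36), Il6st (0.022), Socs3 (0.33), Osmr (0.016), Il6ra (0.0033) and Jak1 (0.28), and without knockout replicate 1 for Lifr (0.15) and Jak1 (0.0066). With a library left out the ranges were −1.07 to 0.33 for Socs3, −0.36 to 0.36 for Lifr, −0.67 to 0.022 for Il6st, −1.27 to 0.016 for Osmr, −0.40 to 0.0033 for Il6ra and −0.58 to 0.28 for Jak1. With stroma factors Lifr turned to 0.040. The cause of these changes was not tested.

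Replicate numbers are shared between the groups, but nothing in the labels pairs them, and deviations of same-numbered libraries correlated at −0.44 across genes. The replicate block called 32 genes, 0 of the 10 LIF pathway genes and 0 of the 73 others, with Lif at −2.17 (adjusted p = 0.366) and Socs3 at −0.42. Crossing the pairs, chosen after seeing the data, called 37 genes and 0 of the 10.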
